A study of Danio rerio with 4 samples.

Results

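The Fgf ligands and feedback genes are 9 zebrafish genes of the fibroblast growth factor (Fgf) pathway. The 4 ligands are fgf3, fgf8a, fgf10a and fgf24, and the 5 feedback and target genes are dusp6, spry2, spry4, etv4 and il17rd. They were taken by gene name, and each name matched 1 gene of the 26812 in the table. All 9 are annotated as protein coding and had reads in every library.

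The RNA came from whole zebrafish embryos in 4 libraries, 1 each of KDM5A-KO embryos at 24 hours post fertilization (hpf), WT embryos at 24 hpf, KDM5A-KO embryos at 48 hpf and WT embryos at 48 hpf. KDM5A encodes a histone demethylase that removes methyl groups from lysine 4 of histone H3. In the labels KDM5A was knocked out with CRISPR/Cas9, and WT and KO fish were bred apart to give the embryos, whereas the study's methods describe a guide RNA and a Cas9 plasmid injected into embryos. Embryos were pooled for each 24 hpf library, and an injected pool can hold cells with different edits or none. The sample titles call the knockout groups "mo", which is not explained. No strain is given in the labels.

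Column names of the table are short codes, K or C followed by 1 or 2. Columns with K were taken for KDM5A-KO and those with C for WT, with 1 for 24 hpf and 2 for 48 hpf, an inference that neither the table nor the labels state. Of 12 expressed genes of the tailbud, a tissue that shrinks as the body axis finishes growing, 11 were lower at 48 than at 24 hpf in KDM5A-KO and 10 in WT. Over all expressed genes, 42.2% were higher at 48 hpf in KDM5A-KO and 58.8% in WT. The tailbud genes bear on the codes 1 and 2 only, not on K and C. KDM5A itself had 20.3 FPKM (1059 reads) in the KDM5A-KO library and 13.8 FPKM (364 reads) in the WT library at 24 hpf. At 48 hpf it had 16.3 FPKM (921 reads) in the KDM5A-KO library and 18.1 FPKM (996 reads) in the WT library. This KDM5A entry lies on the scaffold KN150487.1, not on a chromosome, and whether it covers the whole gene is not known. Its level was higher, not lower, in the knockout library of 24 hpf. The log2 FPKM ratio was 0.56 (95% counting interval 0.38 to 0.73), and 0.29 after rescaling by median ratios. At 48 hpf the ratio was -0.15 (-0.28 to -0.02). An edited transcript can still be counted, and the reads cannot be placed along the gene here. The knockout libraries are called "labelled KDM5A-KO" for this reason.

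Expression was deposited as FPKM, a count of fragments divided by gene length and by the mapped fragments of the library. Library totals, recovered from the steps between the values, were 14724748 reads at 24 hpf and 15922314 at 48 hpf in the libraries labelled KDM5A-KO, against 7441797 and 15525056 in WT. The WT library of 24 hpf was thus the shallowest, and genes of ribosomal RNA or next to it held 12.5% of its reads, against 0.341% to 0.555% in the other 3 libraries. A gene was called expressed in a comparison when 1 of its libraries reached an FPKM of 1. Over 17290 expressed genes the median log2 ratio of genotypes was 0.22 at 24 hpf, against -0.05 over 18262 genes at 48 hpf. Ratios are therefore also given after rescaling each library by the median of its gene ratios, which lowers every log2 FPKM ratio by 0.27 at 24 hpf and by 0.01 at 48 hpf, and ratios of FPKM + 1 by an amount that depends on the level. Each group had 1 library, so no difference has a replicate check and no test was made. Intervals are 95% exact (Clopper-Pearson) intervals on the recovered reads and cover counting error only.

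Fgf ligands are secreted proteins that bind Fgf receptors, tyrosine kinases of the cell surface, and signal inside the cell through the Ras, Raf, Mek and Erk chain. The signal switches on its own brakes: Dusp6 removes phosphate from Erk, Sprouty proteins such as Spry2 and Spry4 act on the chain above Erk, and Il17rd, also known as Sef, holds back signalling at the membrane. Etv4, also known as Pea3, is an ETS transcription factor induced by Fgf. In the zebrafish embryo Fgf signals pattern the midbrain-hindbrain boundary, ear, pharyngeal pouches, tailbud and fin buds, so the levels of these target genes are widely read as a sign of where the pathway is active.

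In the library labelled KDM5A-KO, FPKM was above that of WT for 9 of the 9 genes at 24 hpf, against 71.6% of expressed genes. At 48 hpf it was above that of WT for 8 of the 9, against 46.2% of expressed genes. The exception was spry2, lower at 48 hpf, and it was also the 1 gene whose 24 hpf direction turned after rescaling. The ligands summed to 21.2 FPKM in the library labelled KDM5A-KO and 12.5 FPKM in WT at 24 hpf, and to 19.6 and 12.9 FPKM in the same order at 48 hpf. The feedback and target genes summed to 176 and 110 FPKM at 24 hpf, and to 152 and 107 FPKM at 48 hpf, again with the library labelled KDM5A-KO before WT. In a bulk library of whole embryos, a change in the number of cells that express a gene and a change in its RNA per cell cannot be told apart.

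**Figure D1:**
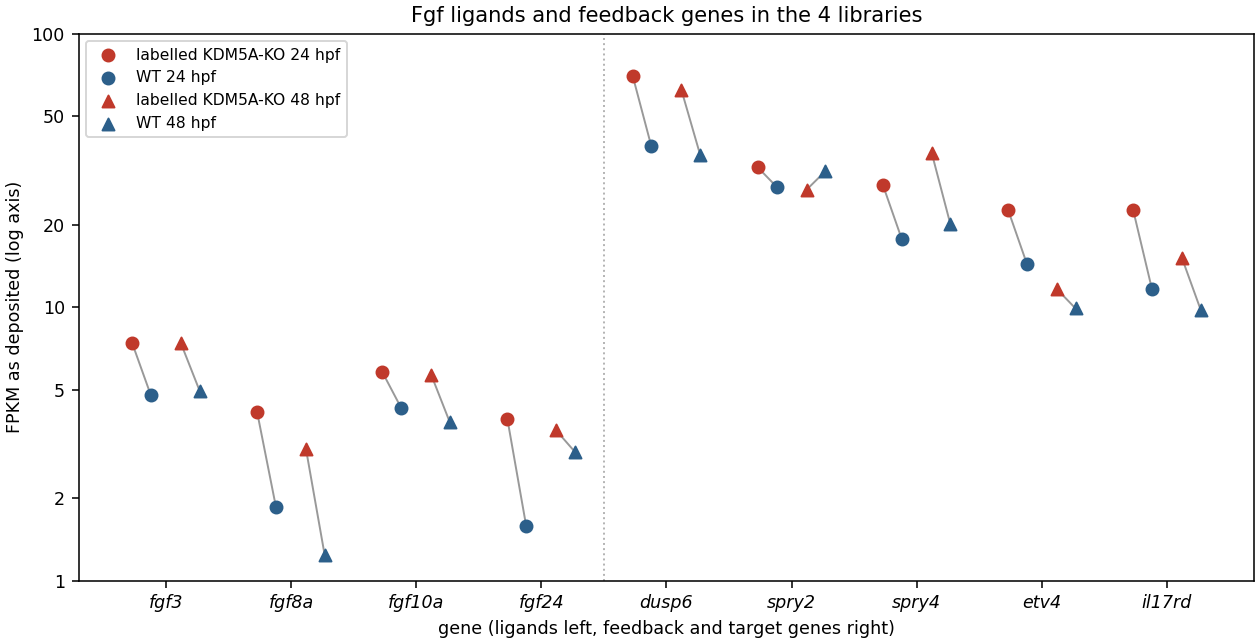
FPKM as deposited (log axis) of the 4 ligands, left of the dotted line, and the 5 feedback and target genes, right of it. Each point is 1 library, circles for 24 hpf and triangles for 48 hpf, and a line joins the library labelled KDM5A-KO (red) to WT (blue) of the same age. The ligands lie between 1.24 and 7.41 FPKM and the feedback and target genes between 9.77 and 70.2 FPKM, and spry2 at 48 hpf is the 1 pair in which WT is higher.

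Among the ligands, fgf3 (ENSDARG00000101540, chromosome 7) is expressed in the hindbrain, ear region and pharyngeal endoderm. It had 7.41 FPKM (206 reads) in the library labelled KDM5A-KO and 4.77 FPKM (67 reads) in WT at 24 hpf, and 7.39 FPKM (222 reads) and 4.95 FPKM (145 reads) at 48 hpf. The FPKM ratio was 1.55 (interval 1.17 to 2.08) at 24 hpf and 1.49 (1.21 to 1.85) at 48 hpf. After rescaling, the 24 hpf ratio was 1.29 and its interval, 0.973 to 1.72, held 1. fgf3 was the highest of the 4 ligands in each library, followed by fgf10a, which was close to it in WT at 24 hpf on 64 reads. Its level was nearly the same at both ages within each genotype.

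fgf8a (ENSDARG00000003399, chromosome 13) encodes the ligand of the midbrain-hindbrain organizer, whose loss in the acerebellar mutant removes the cerebellum. It had 4.13 FPKM (136 reads) in the library labelled KDM5A-KO and 1.86 FPKM (31 reads) in WT at 24 hpf. At 48 hpf the values were 3.03 FPKM (108 reads) and 1.24 FPKM (43 reads). The ratios were 2.22 (1.49 to 3.39) at 24 hpf and 2.45 (1.70 to 3.57) at 48 hpf, and 1.84 (1.24 to 2.81) and 2.43 (1.69 to 3.54) after rescaling. All 4 intervals lay above 1, and fgf8a had the highest ratio of the 9 genes at 48 hpf. The intervals are wide because WT had few reads.

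fgf10a (ENSDARG00000030932, chromosome 21) encodes the ligand of the pectoral fin mesenchyme. It had 5.79 FPKM (171 reads) in the library labelled KDM5A-KO and 4.29 FPKM (64 reads) in WT at 24 hpf, and 5.67 FPKM (181 reads) and 3.79 FPKM (118 reads) at 48 hpf. The ratio was 1.35 (1.01 to 1.83) at 24 hpf and 1.496 (1.18 to 1.90) at 48 hpf. Rescaling brought the 24 hpf ratio to 1.12 (0.835 to 1.52), so that fgf10a showed no difference beyond counting error at that age, and left 1.48 (1.17 to 1.89) at 48 hpf.

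fgf24 (ENSDARG00000037677, chromosome 14) encodes a ligand needed for pectoral fin bud initiation. It had 3.89 FPKM (136 reads) in the library labelled KDM5A-KO and 1.58 FPKM (28 reads) in WT at 24 hpf, and 3.54 FPKM (134 reads) and 2.95 FPKM (109 reads) at 48 hpf. Its ratio, 2.45 (1.63 to 3.83) at 24 hpf and 2.03 (1.35 to 3.18) after rescaling, was the highest of the 9 genes at that age. At 48 hpf the ratio was 1.20 with an interval of 0.924 to 1.56 that held 1. The library that set fgf24 apart at 24 hpf was WT, which had the lowest of the 4 values, while the other 3 libraries lay between 2.95 and 3.89 FPKM.

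Of the feedback and target genes, dusp6 (ENSDARG00000070914, chromosome 25) was the most abundant of the 9 genes in every library and had the most reads. It had 70.2 FPKM (3071 reads) in the library labelled KDM5A-KO and 38.7 FPKM (855 reads) in WT at 24 hpf, and 62.2 FPKM (2942 reads) and 36.0 FPKM (1661 reads) at 48 hpf. The ratios were 1.82 (1.68 to 1.96) and 1.73 (1.63 to 1.84), and 1.505 (1.39 to 1.63) and 1.71 (1.61 to 1.82) after rescaling. Both libraries labelled KDM5A-KO were above both WT libraries, an order whose share over all genes was not counted. The difference between genotypes was larger for dusp6 than that between ages.

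The Sprouty genes differed from each other. spry4 (ENSDARG00000068732, chromosome 21) had 28.0 FPKM (1017 reads) in the library labelled KDM5A-KO and 17.8 FPKM (327 reads) in WT at 24 hpf, and 36.6 FPKM (1441 reads) and 20.1 FPKM (769 reads) at 48 hpf. Its ratio was 1.57 (1.39 to 1.79) at 24 hpf, 1.303 (1.15 to 1.48) after rescaling, and 1.83 (1.67 to 2.00) at 48 hpf. Both libraries labelled KDM5A-KO were above both WT libraries for spry4, as they were for dusp6, il17rd and each of the ligands. The share of all genes with this order was not counted, and the 2 ages are not replicates. spry2 (ENSDARG00000078308, chromosome 1) had 32.4 FPKM (1097 reads) in the library labelled KDM5A-KO and 27.6 FPKM (471 reads) in WT at 24 hpf, and 26.9 FPKM (982 reads) and 31.4 FPKM (1119 reads) at 48 hpf. Its ratio was 1.18 (1.06 to 1.31) at 24 hpf as deposited but 0.976 (0.875 to 1.09) after rescaling, and 0.856 (0.785 to 0.933) at 48 hpf. spry2 therefore had no direction at 24 hpf that held under both scales, was lower at 48 hpf under both, and its genotypes overlapped.

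etv4 (ENSDARG00000018303, chromosome 12) had 22.7 FPKM (660 reads) in the library labelled KDM5A-KO and 14.4 FPKM (212 reads) in WT at 24 hpf, and 11.6 FPKM (366 reads) and 9.89 FPKM (303 reads) at 48 hpf. The ratio was 1.57 (1.35 to 1.85) at 24 hpf, 1.304 (1.12 to 1.53) after rescaling, and 1.18 (1.01 to 1.38) at 48 hpf, where rescaling left the lower bound at 1.00. Here age separated the libraries more than genotype, since both 24 hpf libraries were above both 48 hpf libraries. il17rd (ENSDARG00000098359, chromosome 11) had 22.6 FPKM (996 reads) in the library labelled KDM5A-KO and 11.7 FPKM (259 reads) in WT at 24 hpf, and 15.1 FPKM (719 reads) and 9.77 FPKM (453 reads) at 48 hpf. Its ratio was 1.94 (1.69 to 2.24) at 24 hpf, 1.61 (1.40 to 1.85) after rescaling, and 1.55 (1.37 to 1.74) at 48 hpf. Both libraries labelled KDM5A-KO were above both WT libraries for il17rd as well, an order whose share over all genes was not counted.

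**Figure D2:**
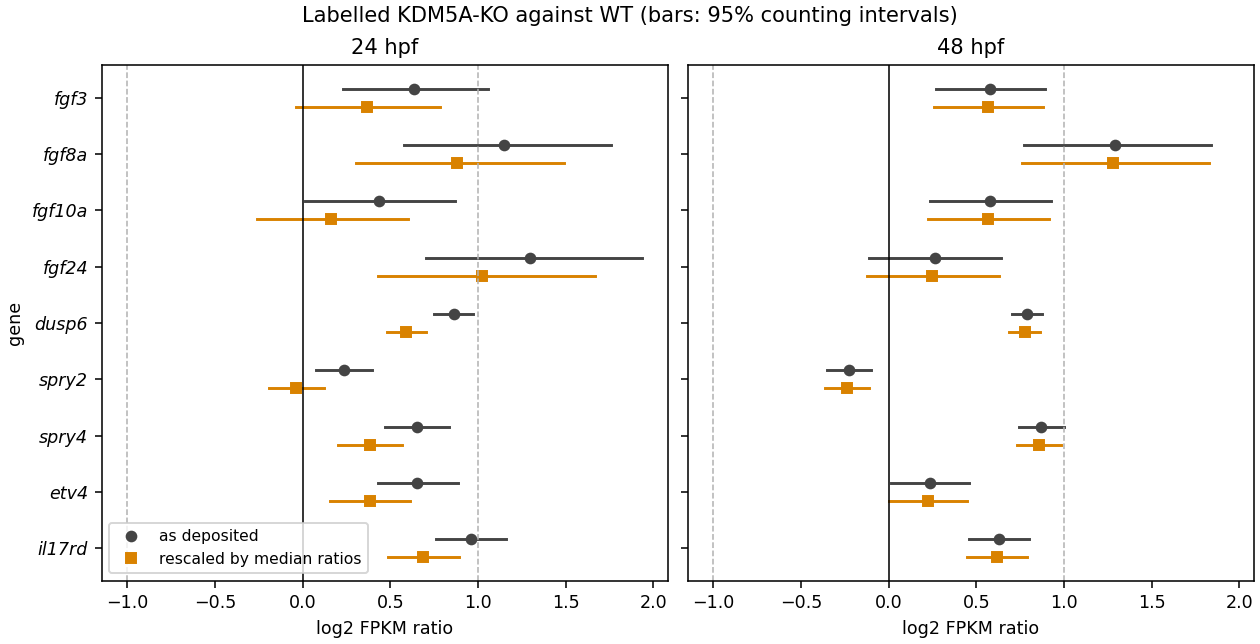
Log2 FPKM ratio, labelled KDM5A-KO over WT, of each gene at 24 hpf (left) and 48 hpf (right), with 95% counting intervals as bars, dashed lines at 2-fold and a solid line at no difference. Black circles are values as deposited and orange squares values after rescaling by median ratios. At 24 hpf 6 of the 9 rescaled intervals lie above 0, and at 48 hpf 7 lie above 0 and that of spry2 below it.

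The members were chosen with earlier results of these data known, so the contrasts with all genes here and below are descriptions, not independent evidence. Counted over the list on the scale log2((labelled KDM5A-KO + 1)/(WT + 1)) of FPKM, which understates the change of low genes, the shift was broad but modest. None of the 9 genes was 2-fold higher or lower at either age, against 2.72% of all 26812 genes 2-fold higher and 1.32% lower at 24 hpf, and 2.56% higher and 3.49% lower at 48 hpf. The ratios of FPKM itself did exceed 2 for fgf8a at both ages and for fgf24 at 24 hpf, and after rescaling for fgf8a at 48 hpf and fgf24 at 24 hpf. At least 1.5-fold higher were 6 of the 9 at 24 hpf, against 16.9% of expressed genes, and 3 of the 9 at 48 hpf, against 10.8%. After rescaling the counts were 3 at 24 hpf, against 7.67% of expressed genes, and 3 at 48 hpf, against 10.5%. The 3 at 24 hpf were fgf8a, fgf24 and il17rd as rescaled, and at 48 hpf they were fgf8a, dusp6 and spry4.

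Across the members the log2 ratios had a median of 0.62 at 24 hpf, against 0.22 over expressed genes, and 0.50 at 48 hpf, against -0.05. After rescaling the medians were 0.37 against -0.01 at 24 hpf, and 0.49 at 48 hpf. The ligands had medians of 0.69 at 24 hpf and 0.49 at 48 hpf, and the feedback and target genes of 0.62 and 0.58. A ratio above 0 was found for 9 of the 9 genes at 24 hpf, where 71.6% of expressed genes were also above 0, and for 8 of the 9 after rescaling, where 49% were. At 48 hpf 8 of the 9 were above 0 under both scales, against 46.2% of expressed genes as deposited and 45.5% rescaled.

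With rescaled counting intervals, 6 of the 9 genes were higher at 24 hpf and none lower, against 19.9% of expressed genes higher and 23.6% lower. The 6 were fgf8a, fgf24, dusp6, spry4, etv4 and il17rd. At 48 hpf 7 were higher, those of the 24 hpf set other than fgf24 together with fgf3 and fgf10a, and spry2 was lower, against 27.3% of expressed genes higher and 35.2% lower. Genes with many reads pass such an interval more easily than genes with few, and 5 of the 9 had over 200 reads in every library. Single genes were not extreme: the share of expressed genes with a higher log2 ratio was between 5.21% for fgf24 and 48.9% for spry2 at 24 hpf, and between 5.55% for fgf8a and 64.0% for spry2 at 48 hpf.

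Every genotype value at 24 hpf rests on the WT library with the least depth and the most rRNA. With the rRNA genes taken out of the totals, the median of the 9 genes at 24 hpf was 0.45, against 0.06 over expressed genes. All 9 stayed above 0 on that scale, where 56.9% of expressed genes were also above 0. The part of depth and rRNA in the remaining difference was not tested. At 48 hpf the depths and rRNA shares of the genotypes were close, and the median was 0.49 without rRNA genes.

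The second question of the design is how these genes changed between 24 and 48 hpf. No member passed 2-fold in either direction in either genotype, whereas 6.34% of all genes were 2-fold higher and 3.54% lower at 48 hpf in the libraries labelled KDM5A-KO, and 12.4% higher and 4.45% lower in WT. Their median log2 ratio was -0.17 in the libraries labelled KDM5A-KO, against -0.11 over expressed genes, and -0.10 in WT, against 0.16. Both age comparisons use the same 4 libraries as the genotype comparisons, so they are not independent of them.

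etv4 had the largest change with age of the feedback and target genes, with a rescaled log2 FPKM ratio of 48 over 24 hpf of -0.81 (-0.998 to -0.62) in the libraries labelled KDM5A-KO and -0.65 (-0.91 to -0.39) in WT. il17rd was also lower at 48 hpf in both, by -0.43 (-0.57 to -0.29) and -0.36 (-0.58 to -0.13) in the same order. For both genes the intervals of the genotypes overlap. spry4 differed, at 0.54 (0.43 to 0.66) in the libraries labelled KDM5A-KO and 0.07 (-0.12 to 0.26) in WT, rescaled intervals that do not overlap. Its deposited intervals do overlap, at 0.39 (0.27 to 0.51) and 0.17 (-0.02 to 0.36) in the same order. For dusp6 the rescaled ratio was -0.02 (-0.09 to 0.05) in the libraries labelled KDM5A-KO and -0.21 (-0.33 to -0.09) in WT. As deposited, the dusp6 ratios were -0.17 (-0.25 to -0.10) and -0.10 (-0.22 to 0.02) in the same order. Which genotype had an interval that held 0 thus depended on the scale.

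Among the ligands, rescaled fgf24 age ratios were 0.02 (-0.34 to 0.37) in the libraries labelled KDM5A-KO and 0.80 (0.19 to 1.45) in WT. fgf24 was the 1 ligand with an interval away from 0 on this scale. As deposited, fgf8a also had one in the libraries labelled KDM5A-KO, at -0.45 (-0.82 to -0.07). The fgf3, fgf8a and fgf10a intervals held 0 in both genotypes after rescaling, with fgf8a at -0.29 (-0.67 to 0.08) in the libraries labelled KDM5A-KO and -0.69 (-1.39 to 0.02) in WT. As deposited, the genotype difference of fgf24 was a log2 FPKM ratio of 1.296 (0.70 to 1.94) at 24 hpf and 0.26 (-0.11 to 0.64) at 48 hpf. These intervals do not overlap, but the rescaled ones, 0.43 to 1.67 and -0.13 to 0.63, do.

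**Figure D3:**
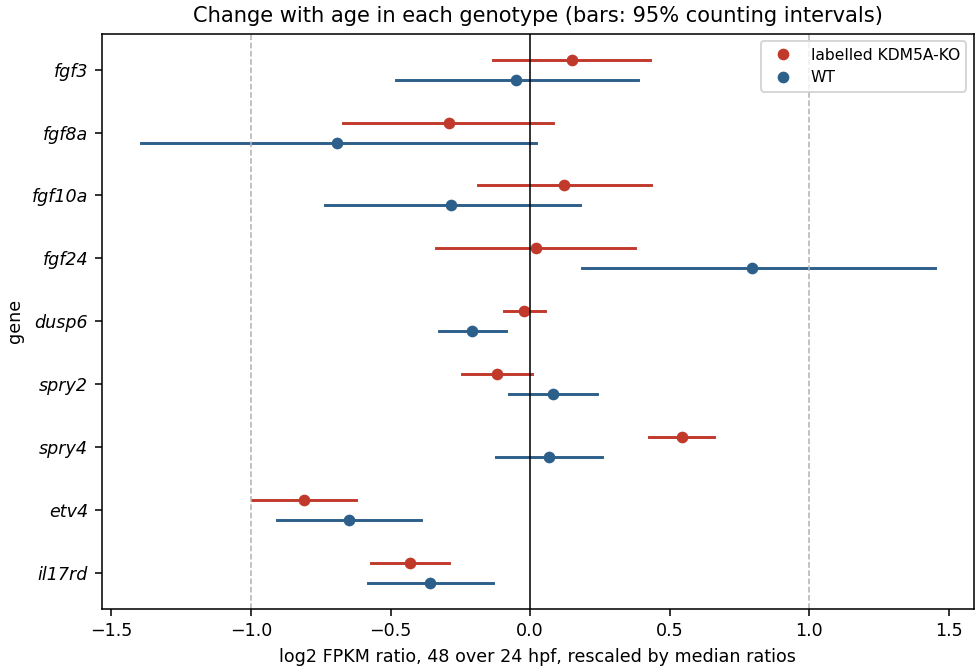
Log2 FPKM ratio of 48 over 24 hpf after rescaling by median ratios, for the libraries labelled KDM5A-KO (red, above) and WT (blue, below), with 95% counting intervals as bars and dashed lines at 2-fold. etv4 and il17rd lie below 0 in both genotypes, spry4 lies at 0.54 in the libraries labelled KDM5A-KO and 0.07 in WT, and fgf24 at 0.02 and 0.80.

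Other parts of the pathway were read from gene lists drawn up for this purpose. Their counts above 0, and those of the tissue lists below, are to be read against the share of all expressed genes above 0. That share was 71.6% at 24 hpf as deposited, 49% at 24 hpf after rescaling, and 46.2% at 48 hpf as deposited. Of the 20 other secreted Fgf ligands, 16 were expressed. At 24 hpf 11 of the 16 had a ratio above 0 (10 rescaled), with a median of 0.36 (0.17 rescaled), and 2 were 2-fold higher. At 48 hpf 10 were above 0, with a median of 0.17, and 1 was 2-fold higher. The list as a whole was thus nearer to the middle of all genes than the 4 ligands described above.

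fgf2, a ligand without a classical signal sequence, had 12.6 FPKM (184 reads) in the library labelled KDM5A-KO and 1.49 FPKM (11 reads) in WT at 24 hpf, a log2 FPKM ratio of 3.08 (2.21 to 4.11). At 48 hpf it had 4.31 and 2.79 FPKM in the same order. fgf20b, a paralog of the fin regeneration ligand gene fgf20a, had 1.58 FPKM (30 reads) and 0.208 FPKM (2 reads) at 24 hpf, a log2 ratio of 2.92 (0.94 to 6.03), and 0.926 and 1.15 FPKM at 48 hpf. fgf10b, the paralog of fgf10a, had 2.00 FPKM (18 reads) in the library labelled KDM5A-KO and 0.228 FPKM (2 reads) in WT at 48 hpf, a log2 ratio of 3.13 (1.07 to 6.29). fgf6b, whose mammalian homologue is expressed in muscle, had 4.09 FPKM (47 reads) and 1.97 FPKM (22 reads) at 48 hpf, and 4 reads in the library labelled KDM5A-KO and 0 in WT at 24 hpf. Each of these comparisons has few reads in WT, that of fgf2 included.

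The intracellular Fgf homologous factors, which bind voltage-gated sodium channels and are not secreted, went the other way at 48 hpf. Of 6 expressed, 3 were above 0 at 24 hpf (2 rescaled) with a median of 0.05 (-0.12 rescaled). At 48 hpf 1 was above 0, with a median of -0.41. fgf14 had 6.39 FPKM in the library labelled KDM5A-KO and 12.8 FPKM in WT at 48 hpf, a log2 ratio of -1.01 (-1.43 to -0.60), and fgf12b had 7.57 and 10.7 FPKM, a log2 ratio of -0.50 (-0.65 to -0.35). fgf11a was the exception, with 3.86 and 0.935 FPKM at 48 hpf and a log2 ratio of 2.04 (1.15 to 3.04).

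Receptors and coreceptors had no common direction. Of 10 expressed, 7 were above 0 at 24 hpf (5 rescaled) with a median of 0.16 (-0.02 rescaled). At 48 hpf 6 were above 0, with a median of 0.20. fgfr3, a receptor of neural and skeletal tissue, had 6.75 FPKM (322 reads) in the library labelled KDM5A-KO and 12.8 FPKM (308 reads) in WT at 24 hpf, a log2 ratio of -0.92 (-1.15 to -0.69), and 7.45 and 7.86 FPKM at 48 hpf. fgfr1bl, the 1 receptor gene with several rows in the table, and fgfr1b were higher at 48 hpf, with 14.6 and 4.47 FPKM and 11.5 and 6.24 FPKM, the library labelled KDM5A-KO before WT. flrt3, a membrane protein that enhances Fgf signalling in frog embryos, had 42.2 and 30.4 FPKM at 24 hpf and 23.1 and 24.97 FPKM at 48 hpf in the same order.

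The Ras-MAPK chain that the ligands feed into stayed close to the middle of all genes once rescaled. All 23 of its listed genes were expressed, 18 of them above 0 at 24 hpf (13 rescaled) with a median of 0.30 (0.04 rescaled). At 48 hpf 9 were above 0, with a median of -0.03. map2k1, which encodes the kinase Mek1, had 12.4 FPKM in the library labelled KDM5A-KO and 6.04 FPKM in WT at 24 hpf and 16.8 and 13.6 FPKM at 48 hpf. raf1b, a Raf kinase gene, had 13.2 and 8.06 FPKM at 24 hpf and 12.2 and 8.43 FPKM at 48 hpf. frs3, an adaptor of the receptor, and ptpn11b, which encodes a Shp2 phosphatase, had lower values at 48 hpf in the library labelled KDM5A-KO, 1.20 against 3.14 FPKM in WT and 1.11 against 2.40 FPKM in WT.

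Besides the 5 members, 17 of 20 listed feedback and target genes are in the table under the names searched. Of these, 13 were above 0 at 24 hpf (9 rescaled) with a median of 0.35 (0.09 rescaled). At 48 hpf 12 were above 0, with a median of 0.15. fosab, an immediate early transcription factor, had 8.87 FPKM (222 reads) in the library labelled KDM5A-KO and 1.19 FPKM (15 reads) in WT at 24 hpf, a log2 ratio of 2.90 (2.15 to 3.76), and 82.6 and 76.4 FPKM at 48 hpf. dusp5, a nuclear Erk phosphatase, had 10.1 and 4.77 FPKM at 24 hpf and 10.2 and 7.32 FPKM at 48 hpf. In the other direction, the Sprouty-related gene spred3 had 5.22 FPKM in the library labelled KDM5A-KO and 10.6 FPKM in WT at 48 hpf, and etv1, an ETS factor gene, had 1.18 and 2.91 FPKM.

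Genes that share a family name with members include spry1, dusp4, etv5b and etv5a, which were chosen after their values were seen. Their values are given as deposited. The list of 17 that they come from had 9 genes above 0 and a median of 0.09 at 24 hpf after rescaling. spry1 had 22.4 FPKM in the library labelled KDM5A-KO and 14.4 FPKM in WT at 24 hpf, and 15.5 and 10.4 FPKM at 48 hpf. dusp4, an Erk phosphatase gene, had 14.2 and 7.62 FPKM at 24 hpf and 18.5 and 10.3 FPKM at 48 hpf. The ETS factor gene etv5b had 51.7 and 32.1 FPKM at 24 hpf and 24.9 and 16.7 FPKM at 48 hpf, while its paralog etv5a differed less, with 22.2 and 19.4 FPKM and 14.4 and 12.9 FPKM. The list also holds other dusp and etv genes. Their log2 ratios of FPKM + 1 are given as deposited, 24 hpf before 48 hpf. They were 0.94 and 0.43 for dusp5, 0.79 and 0.02 for dusp2, and 0.23 and 0.17 for dusp7. dusp1 had -0.004 and 0.70, and etv1 -0.29 and -0.84. The listed feedback and target genes thus included genes that were higher, genes that were lower and genes with ratios near 1. The medians of the members do not stand for all of them.

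**Figure D4:**
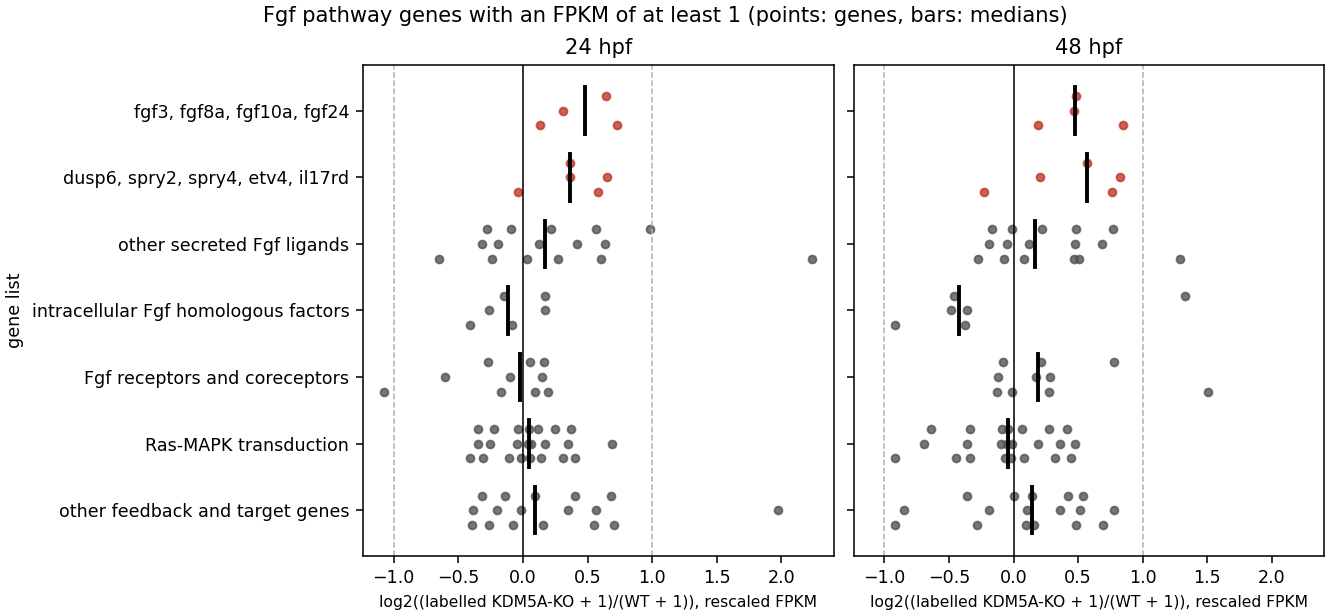
Rescaled log2((labelled KDM5A-KO + 1)/(WT + 1)) of FPKM at 24 hpf (left) and 48 hpf (right) for the expressed genes of each pathway list, with a bar at the median and dashed lines at 2-fold. The 9 members, in red, have ligand and feedback gene medians right of 0 at both ages. So do the other secreted ligands (0.17 at both ages) and the other feedback and target genes (0.09 and 0.14). The medians of the receptor and Ras-MAPK lists are -0.02 and 0.04 at 24 hpf, and 0.19 and -0.04 at 48 hpf.

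Marker lists of the tissues that use Fgf signals were read beside the members, and markers of all 5 tissues were expressed. The lists are not separate from the pathway lists: fgf4 (tailbud) and fgf16 (fin bud) are also among the other ligands, cnpy1 (boundary) among the feedback and target genes, and pax5 is in both the boundary and the otic list. At 24 hpf the tailbud genes moved with them: 12 of 12 expressed were above 0, with a median of 0.55 (0.32 rescaled), and they summed to 118 FPKM in the library labelled KDM5A-KO and 72.7 FPKM in WT. Their defining gene ta, the zebrafish Brachyury gene, had 26.1 and 17.4 FPKM in the same order. The gene cyp26a1, which breaks down retinoic acid, had 23.2 and 11.5 FPKM. At the later age ta had 11.5 and 8.98 FPKM, and cyp26a1 13.9 and 16.6 FPKM. At 48 hpf 8 of 12 were above 0, with a median of 0.28 and sums of 39.1 and 33.8 FPKM. wnt8a, the remaining tailbud marker, had 1 read at 24 hpf in the library labelled KDM5A-KO and 0 in the other 3 libraries. The part of tailbud tissue or of embryo stage in the members' higher levels at 24 hpf was not tested.

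The midbrain-hindbrain boundary genes, which mark the source of fgf8a, summed to 118 FPKM in the library labelled KDM5A-KO and 83.9 FPKM in WT at 24 hpf and to 93.9 and 103 FPKM at 48 hpf, with medians of 0.26 (0.03 rescaled) and -0.04. The part of boundary tissue in the fgf8a ratios was not tested. At 24 hpf 11 of the 12 boundary genes were above 0 (6 rescaled). At 48 hpf 5 of the 12 were above 0, against 46.2% of expressed genes, and 7 were below 0, the lowest at -1.10. eng1b, a homeobox gene of the boundary, had 16.3 and 14.6 FPKM there, and cnpy1, a regulator of Fgf receptors at the boundary, had 13.1 and 9.00 FPKM. Both were named for their high mean FPKM and are not among the 7 genes below 0.

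Pectoral fin bud genes, the tissue of fgf10a and fgf24, summed to 174 FPKM in the library labelled KDM5A-KO and 151 FPKM in WT at 24 hpf and to 511 and 421 FPKM at 48 hpf, with 8 and 10 of 13 above 0 and medians of 0.15 and 0.09. The 24 hpf direction of this list turned after rescaling, with sums of 157 and 164 FPKM, 6 of 13 above 0 and a median of -0.09. The fin fold genes and1 and and2 led the 48 hpf sums, with 194 and 128 FPKM and 138 and 117 FPKM. At 24 hpf both lay below WT. Their log2 ratios of FPKM + 1 were then -0.11 for and1 (-0.36 rescaled) and -0.14 for and2 (-0.38 rescaled). Pharyngeal genes summed to 135 and 90.6 FPKM at 24 hpf and 97.0 and 93.4 FPKM at 48 hpf, with medians of 0.36 (0.10 rescaled) and -0.01. The homeobox gene dlx3b had 41.9 and 32.5 FPKM and the arch gene dlx2a 17.8 and 13.6 FPKM at 24 hpf. At 48 hpf dlx2a lay below WT, with a log2 ratio of FPKM + 1 of -0.42 (-0.43 rescaled). Otic genes summed to 92.6 and 72.2 FPKM at 24 hpf and 94.6 and 91.9 FPKM at 48 hpf, with medians of 0.20 and -0.01, and the 24 hpf median turned to -0.02 after rescaling. Within that list oc90, an otoconial protein gene, had 38.6 and 15.8 FPKM at 24 hpf and 9.41 and 0.84 FPKM at 48 hpf, whereas sox9a had 19.8 and 24.2 FPKM and 41.0 and 42.5 FPKM. At 48 hpf the medians of these tissue lists lay between -0.04 and 0.28, below that of the 9 members, and the difference was not tested.

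The mean pattern of the 5 feedback and target genes over the 4 libraries, as log2(FPKM + 1) centred on each gene's mean, was 0.42 in the library labelled KDM5A-KO and -0.22 in WT at 24 hpf, and 0.12 and -0.32 at 48 hpf. Among 19323 named and expressed genes, those nearest to it by Euclidean distance were rpusd1, si:ch211-166a6.5, sytl4, atoh8 and oclna, at distances of 0.030 to 0.042. The members themselves were farther away, between 0.233 for fgf10a and 0.572 for spry2, with 630 to 6111 non-member genes nearer than a given member. With 4 libraries such a pattern is shared by many genes, and likeness in it is a description of these libraries.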

How the data were processed

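RNA sequencing of zebrafish embryos was read from 1 table. The authors deposited FPKM values for 26812 Ensembl genes in 4 columns, with gene names and annotation, and no fold changes or p-values. The submitters' processing notes name FastQC 0.11.5, HISAT2 2.1.0, StringTie 1.3.3b and DESeq 1.28.0. They also name mm10, a mouse build, beside zebrafish gene identifiers, so the build is not known and no coordinates are given. The labels name a SMARTER kit and the study's methods an NEBNext kit, and whether counting used strand is not given in the sources used here.

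The members and the gene lists were chosen with earlier results of these data known. Library totals and reads were recovered from the steps between FPKM values for 26811 genes (a read was whole within 0.002), and recovered reads made up 98.1% to 98.3% of the totals. The recovery of reads was run on simulated data with the library totals given. Totals were recovered there only from genes simulated with a length equal to their span. That run therefore does not show how well the recovery works on the deposited values. Where a multiple of the recovered reads would also give the values, intervals are too wide. Log2 ratios used a pseudocount of 1 FPKM. Median-of-ratios rescaling used 14596 genes with at least 1 FPKM in every library. The rRNA genes were 234 genes, either of rRNA biotype or within 15 kb of genes of 1 rRNA class picked by name, not of every rRNA gene. No test was made, since each group had 1 library. Genes named outside the members and KDM5A were, for each pathway list, the 2 with the largest absolute log2 ratio at each age, for each tissue list the 2 with the highest mean FPKM, and the 5 nearest in pattern. spry1, dusp1, dusp2, dusp4, dusp7, etv5a and etv5b were named after their values were seen, as were wnt8a for its reads and the genes shared by lists. Where a name had several rows, the row with the higher mean was used. Alternatives were a pseudocount of 0.1, rescaling, totals without rRNA genes, a 1.5-fold threshold, a mean FPKM of at least 1 and protein-coding genes only. Values were computed in Python 3.11.15 with pandas 2.3.3, scipy 1.17.1 and numpy 2.4.6, and drawn with matplotlib 3.10.9.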

Additional observations from a re-analysis of the deposited data

Results flagged for a closer look

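For 12 of the genes picked by the naming rule the library labelled KDM5A-KO lay above WT at 1 age and below it at the other on the deposited scale. With 1 library per group the difference between the ages was not tested. The share of all genes with such opposite directions was not counted, and the median over expressed genes itself went from 0.22 at 24 hpf to -0.05 at 48 hpf. Values are the log2((labelled KDM5A-KO + 1)/(WT + 1)) of FPKM at 48 hpf minus that at 24 hpf. Among the members this held for spry2 (-0.44), whose ratio was 0.23 at 24 hpf and -0.22 at 48 hpf as deposited, and -0.03 and -0.23 after rescaling, so the opposite directions are not seen on that scale. It held for KDM5A, the targeted gene, at -0.67.

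In the Fgf pathway the differences were -1.25 for fgf20b, which had 2 reads in WT at 24 hpf, -1.25 for fgf14, 1.61 for fgf11a, -0.86 for fgf12b, 0.81 for fgfr1b and -0.57 for flrt3. Among the tissue markers they were -1.19 for cyp26a1, 0.39 for and2, 0.70 for and1 and -0.79 for dlx2a. After rescaling, these genes other than spry2 kept opposite directions at the 2 ages.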

How the results depend on the processing

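Between genotypes, the 9 genes had the same directions at both ages with a pseudocount of 0.1 and with totals free of rRNA genes. Rescaling turned spry2 at 24 hpf to -0.0343. No paired analysis was possible because no group held more than 1 library. The count of members past 2-fold, 0 in each comparison, was 2 at 24 hpf and 1 at 48 hpf with a pseudocount of 0.1, which took the share of all genes past 2-fold to 17.1% (4.04% with 1 FPKM) at 24 hpf and 18.4% (6.05%) at 48 hpf. At a 1.5-fold threshold it was 6 at 24 hpf, 3 at 48 hpf, 1 for age in the libraries labelled KDM5A-KO and 1 for age in WT, against 15.2%, 19.1%, 25.5% and 33.0% of all genes past it in either direction. The median log2 ratio of the members moved to 0.37 at 24 hpf under rescaling. For age it moved to -0.28 in WT without rRNA genes and to -0.0205 in the libraries labelled KDM5A-KO under rescaling. Age changes near 0 turned their sign. In WT these were fgf3 (-0.0432 rescaled, -0.11 without rRNA genes) and spry4 (-0.0124 without rRNA genes). In the libraries labelled KDM5A-KO they were fgf3 (0.13), fgf10a (0.10) and fgf24 (0.0154), all rescaled. Of 36 member ratios, 36 kept their sign and moved by less than their counting error with a pseudocount of 0.1, 23 under rescaling and 30 without rRNA genes. A mean FPKM of at least 1, or protein-coding genes alone, left the count at 0. Depth limits the ligands most, with 28 to 67 reads each in WT at 24 hpf.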
